A study of Mus musculus with 4 samples.

Results

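Dcpp1, Dcpp2 and Dcpp3, the demilune cell and parotid proteins, and Sbpl, the spermine-binding protein-like gene, were described by their array signals in bronchoalveolar lavage (BALF) cells of bleomycin-administered mice. The members were taken as every non-control probe whose accession belongs to 1 of these 4 genes in a RefSeq table. This gave 4 probes, 1 per gene, of 39429 probes and of 20832 gene symbols with a probe. The genes were chosen by their measured values in the comparison described here: their signal was at or near background on the wild-type arrays and well above it on the arrays labelled S1pr2-/-. Their genotype differences are therefore given as a description with no test.

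BALF cells are obtained by rinsing the airways and alveoli with fluid. RNA of these cells from young adult wild-type mice was hybridized to 2 one-color arrays, and RNA from S1pr2-/- mice to another 2. Bleomycin, a drug that injures the lung and leads to fibrosis, had been injected intraperitoneally at 0.035 U/g, 2 times per week, in both genotypes, and the cells were collected on day 22. The knockout mice carried a deletion in all cells, not in a chosen cell type. Their strain was a mix of 129Ola;C57BL/6J after a backcross to C57BL/6J, and the wild-type mice were littermates. No array of mice without bleomycin was part of the comparison. All 4 arrays lay on 1 slide read in 1 scan. Whether an array held cells of 1 mouse or a pool is not given in the sources used here, so that the spread between arrays may be partly technical.

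The Dcpp proteins are small secreted proteins, first described from the serous demilune cells of the sublingual gland and from the parotid gland, and they carry a lectin-like fold of the jacalin family. Sbp, the spermine-binding protein, is a secretory product of the mouse prostate that belongs to the same family, and Sbpl is its close relative. S1pr2 encodes a receptor for sphingosine-1-phosphate, a lipid mediator.

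S1pr2 itself, the targeted gene, had a processed intensity of 2337 and 2229 in wild-type, against 17876 and 15022 on the arrays labelled S1pr2-/-. This is against the label, with a log2 difference of 2.75 (SE 0.072, limma adjusted p = 0.338). Where the probe lies relative to the deleted part is not given in the sources used here, and every direction is that of the arrays by their label. The Y-linked genes Ddx3y, Kdm5d and Uty were well above background on all 4 arrays, and Xist, the noncoding RNA of the inactive X chromosome, on none, so that all 4 arrays had the same pattern of sex-linked genes. The labelled cells carried their markers: 13 of 13 alveolar macrophage genes were well above background on all arrays.

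The 4 genes lie side by side on chromosome 17 in RefSeq, in the order Dcpp1, Dcpp2, Dcpp3, Sbp and Sbpl, with 2 pseudogenes and 1 long noncoding RNA among them. The 100 bases before each annotated start are shown because they are the stretch that the 3 Dcpp genes nearly share and Sbpl does not. They are from RefSeq (GRCm38.p6) at chr17:23880776-23880875 for Dcpp1, chr17:23898622-23898721 for Dcpp2 and chr17:23917358-23917457 for Dcpp3, all on the plus strand, and at chr17:23955274-23955373 for Sbpl on the minus strand. The capitals mark TATAA, the core of a TATA box.
Dcpp1: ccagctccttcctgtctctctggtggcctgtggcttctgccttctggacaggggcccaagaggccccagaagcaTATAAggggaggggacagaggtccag
Dcpp2: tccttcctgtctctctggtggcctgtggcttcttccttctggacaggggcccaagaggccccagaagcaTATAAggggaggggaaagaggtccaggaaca
Dcpp3: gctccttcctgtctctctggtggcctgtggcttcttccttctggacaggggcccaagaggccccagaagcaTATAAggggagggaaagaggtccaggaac
Sbpl: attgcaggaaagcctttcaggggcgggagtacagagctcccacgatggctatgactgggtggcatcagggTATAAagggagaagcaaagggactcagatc

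Over the 300-base window around the start, 286 of 295 aligned bases were identical between Dcpp1 and Dcpp2 (96.9%), 289 of 296 between Dcpp1 and Dcpp3 (97.6%) and 291 of 298 between Dcpp2 and Dcpp3 (97.7%). Aligned with Sbpl, the Dcpp windows needed between 112 and 138 gap positions, against at most 10 among the Dcpp genes. TATAA was found 1 time in each window, 26 bases before the start in Dcpp1, 31 in Dcpp2, 29 in Dcpp3 and 30 in Sbpl. It was searched on both strands, was chosen after the sequences had been seen, and occurs in 24.9% of 32851 promoter windows of the same length. The longer TATAAA, which contains it, was found only in Sbpl among the 4 and in 13.6% of all windows. A STAT6 motif (6.95% of all windows) and the palindromic androgen and glucocorticoid receptor motif (0.00913% of all windows) were in none of the 4 windows, on either strand.

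For Dcpp3 (A_55_P1991874), the processed intensity, which is the spot's signal after background correction, was 23.7 and 25.4 on wild-type replicates 1 and 2, and 512 and 217 on S1pr2-/- replicates 1 and 2. The median raw signal of the spot was 83.5, 85, 627 and 299 in the same order, over local backgrounds of 33, 33, 33.5 and 32. Dcpp3 was therefore the member with a signal called well above background by Feature Extraction on all 4 arrays, and its genotypes did not overlap. Relative to each array's 75th percentile, its log2 value was -6.68 ± 0.10 in wild-type and -3.01 ± 0.79 in arrays labelled S1pr2-/- (SD, n = 2 each), a 12.7-fold difference. It was 12.2-fold with a floor for low values, set here at 0.01 of the 75th percentile. The methods list their floor of 0.01 before the scaling to that percentile. In a bulk sample, fewer cells that make a transcript and less transcript per cell cannot be told apart.

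For Dcpp2 (A_55_P2158510), the processed intensity was 17.1 and 18.2 in wild-type, against 323 and 141 on the arrays labelled S1pr2-/-, from raw signals of 71, 70, 411 and 220. It was well above background on wild-type replicate 2 and on both arrays labelled S1pr2-/-. The log2 value was -3.66 ± 0.75 in arrays labelled S1pr2-/- (SD, n = 2). Wild-type replicate 1, where the spot was not well above background, was also set to the lowest signal detected on that array. The difference was then 9.65-fold. With the floor, which is set higher than that signal, it was 7.93-fold. On wild-type replicate 1 the lowest detected signal, 23.7, was that of the Dcpp3 spot.

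For Dcpp1 (A_55_P2178967), the processed intensity was 6.78 and 10.4 in wild-type, against 231 and 107 on the arrays labelled S1pr2-/-, from raw signals of 58, 60.5, 290 and 166. Neither wild-type spot was well above background, and both S1pr2-/- spots were. The scanner software's own error of the processed signal was 5.02 at 6.78 and 3.97 at 10.4, so that the wild-type level of Dcpp1 was barely resolved. With the lowest detected signal of each array in its place, the arrays labelled S1pr2-/- were 7.22-fold higher. The value with the higher floor was 5.83-fold.

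For Sbpl (A_55_P2003092), the processed intensity was 17.1 and 14.6 in wild-type, against 195 and 77.9 on the arrays labelled S1pr2-/-, from raw signals of 72, 68, 266 and 144.5. Its detection ran as for Dcpp1, on neither wild-type array and on both arrays labelled S1pr2-/-. The difference was 5.67-fold on the same terms and 4.58-fold with the floor. It was 3.02-fold with the floor without S1pr2-/- replicate 1 and 6.93-fold without replicate 2. These values hold for the scaled processed signal. An alternative was normexp background correction, which adds an offset to every spot, followed by quantile normalization and with no floor. The differences were then 2.44-fold for Dcpp1, 2.87-fold for Dcpp2, 3.53-fold for Dcpp3 and 2.04-fold for Sbpl. For each of the 4 genes the lower array labelled S1pr2-/- exceeded the higher wild-type array, which also held for 21.0% of all probes tested. For Dcpp3, the member measured on all arrays, the lower array exceeded the higher by 8.24-fold. The genes were chosen by these values, so nothing is read from this separation.

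**Figure D1:**
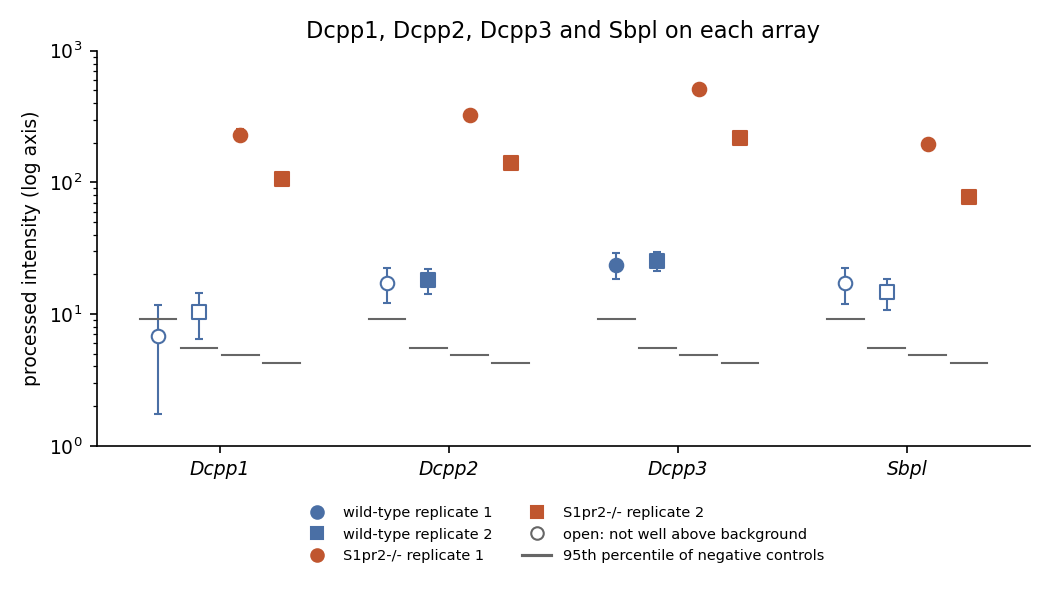
Processed intensity (log axis) of the single probe of each gene on each of the 4 arrays; error bars are the scanner software's error, open symbols are spots not well above background, and grey lines are the 95th percentile of the negative control spots of that array. The wild-type symbols lie between 6.78 and 25.4 and the S1pr2-/- symbols between 77.9 and 512.

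The wild-type signals were compared with the 153 negative control spots of each array, which match no transcript. On wild-type replicate 1, the share of negative control spots with a lower processed signal was 94.1% for Dcpp1, 95.4% for Dcpp2 and Sbpl, and 96.1% for Dcpp3. On wild-type replicate 2 it was 96.1% for Dcpp1, 98.0% for Dcpp2 and Sbpl, and 98.7% for Dcpp3. On both arrays labelled S1pr2-/- it was 100% for all 4 genes, where the highest negative control had a processed signal of 15.1 and 37.0. The wild-type spots thus lay in the upper end of the negative controls of their array, and the S1pr2-/- spots lay beyond all those of theirs. On wild-type replicates 1 and 2 the highest negative control reached 164 and 41.7. The 164 exceeds the signals of Dcpp1, Dcpp2 and Sbpl on S1pr2-/- replicate 2. Negative controls called well above background numbered 6 and 3 in wild-type, and 0 and 1 on the arrays labelled S1pr2-/-. Their median raw signal was 44 and 43.5 on the wild-type arrays.

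The local background of the 4 spots was between 22.5 and 33.5 on all arrays, so that the raw signal was 2.20 to 2.58 times the background on the wild-type arrays, 8.44 to 18.7 times on S1pr2-/- replicate 1 and 5.56 to 9.34 times on S1pr2-/- replicate 2. None of the 16 spots carried an outlier flag or was saturated. Each probe had 1 spot per array, and the 4 spots lay apart from each other on the array. Among probes spotted 5 or more times, the median coefficient of variation between spots was 15.2% to 34.6% at intensities of 5 to 30, and 4.81% to 5.45% at intensities of 75 to 550, depending on the array.

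All 4 signals remained low in relation to the array. They were between 0.265% and 1.02% of the 75th percentile on the wild-type arrays, 6.93% to 18.2% on S1pr2-/- replicate 1 and 3.02% to 8.42% on S1pr2-/- replicate 2. Across all probes measured, 391 of 39359 (0.993%) were well above background on both arrays labelled S1pr2-/- and on neither wild-type array, and Dcpp1 and Sbpl were among them. By the more lenient call of a signal significant over background, all 8 wild-type spots of the members were positive, and 538 probes but no member had the pattern. With a raw signal over 1.5 times the local background as detection, 108 probes and again no member had it. The opposite pattern was held by 34 probes. Because the Dcpp genes are close copies, how far each Dcpp probe measures its own transcript alone was not tested, and their values may not be independent. Since the members were selected on this detection, nothing is read from that share.

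Across 27161 probes, those detected on the 2 arrays of either genotype, limma with Benjamini-Hochberg adjustment called 0.0% at an adjusted p under 0.05. An unadjusted p under 0.05 was reached by 2604 probes, normexp background correction called 1 probe in each direction at an adjusted p, and the methods' t-test called 0. By the methods' rule of over 1.5-fold with an unadjusted p under 0.05, 0.486% of probes were higher and 1.62% lower on the arrays labelled S1pr2-/-, and 21.0% of probes had both arrays labelled S1pr2-/- above both wild-type arrays, which all 4 members had. Ordered from the most higher to the most lower on the arrays labelled S1pr2-/-, with the floor, Dcpp3 was at rank 1, Dcpp2 at 2, Dcpp1 at 5 and Sbpl at 6. Just outside stood Dnm1, which encodes a dynamin of synaptic vesicle recycling, at rank 7 with a log2 difference of 2.13 against 2.20 for Sbpl, and Jchain, the joining chain of secreted immunoglobulins made by plasma cells, at rank 8 with 2.13. Jchain was detected on every array, at processed intensities of 80.4 and 62.5 in wild-type and 514 and 213 in arrays labelled S1pr2-/-. The ranks between the members, 3 and 4, were held by S1pr2 and by Syt10, a synaptotagmin. Since 7 of the 8 wild-type member spots were at the floor, these ranks depend on it: without a floor they were 1 for Dcpp1, 3 for Dcpp3, 4 for Dcpp2 and 9 for Sbpl, and those of Dcpp1, Sbpl and Dcpp2 (on wild-type replicate 1) then rest on wild-type spots not well above background.

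**Figure D2:**
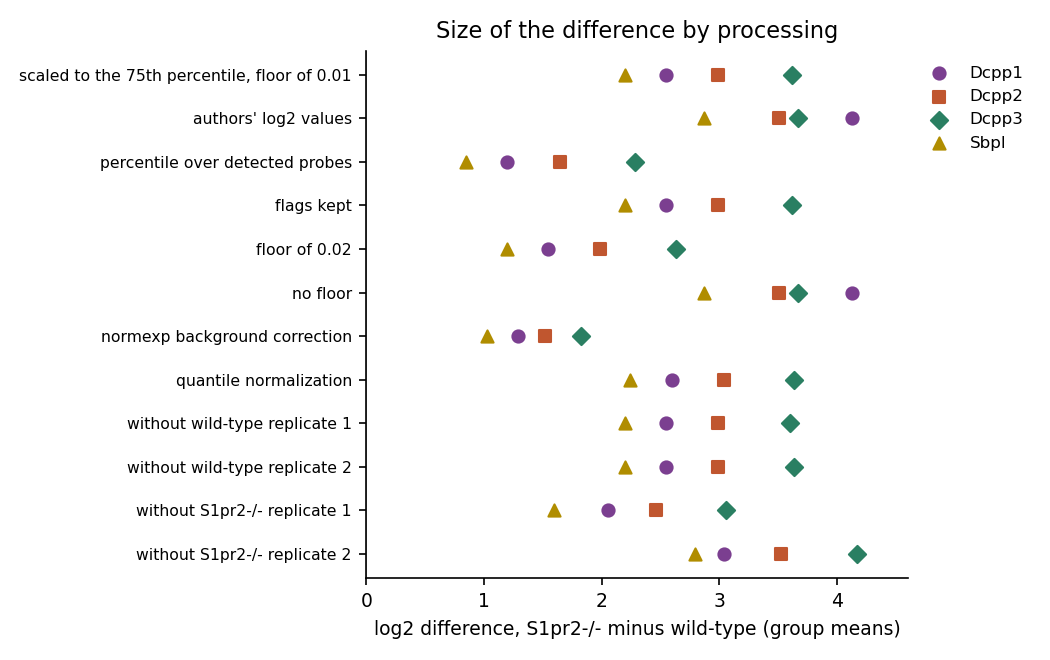
Log2 difference between the group means (S1pr2-/- minus wild-type, x axis) of each gene under each way of processing the arrays (y axis). Each of the 4 genes was higher on the arrays labelled S1pr2-/- in every setting drawn, with values from 0.85 for Sbpl to 4.17 for Dcpp3.

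The arrays labelled S1pr2-/- differed from each other in the same way for all members. Scaled to the 75th percentile, S1pr2-/- replicate 1 was higher than replicate 2 by 1.98-fold for Dcpp1, 2.09-fold for Dcpp2, 2.16-fold for Dcpp3 and 2.29-fold for Sbpl. Among probes well above background on both of these arrays, 0.989% were over 2-fold higher on replicate 1, and among the 3582 of these with a mean level within the members' range it was 1.59%. The wild-type arrays differed by 0.14 on the log2 scale for Dcpp3. For the other members no ratio is given, since at least 1 wild-type spot was not well above background.

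Genes of salivary and airway glands were examined as a list of 33 measured genes, which holds secreted proteins and also transcription factors, a water channel and a receptor of gland cells. Of these, 25 were well above background on all arrays and 4 (Smgc, Prol1, Smr3a and Wfdc12) on none. The brightest were Pigr, the receptor that carries polymeric immunoglobulins across epithelium, and Lyz1, a lysozyme, followed by the airway surface proteins Bpifa1 and Bpifb1. Pigr had processed intensities of 218681 and 170668 in wild-type and 187567 and 171334 in arrays labelled S1pr2-/-, and Lyz1 had 148848, 164303, 155028 and 157319, with overlapping genotypes in both. Bpifa1 had 24744 and 40539 in wild-type against 28566 and 64207 in arrays labelled S1pr2-/-, and Bpifb1 had 5785, 9828, 4525 and 10372, so that both were higher on replicate 2 of either genotype.

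By the methods' fold and p, 0 of 27 tested gland genes were higher and 1 was lower on the arrays labelled S1pr2-/-, beside 0.486% and 1.62% of all probes. The lower gene was Spdef, a transcription factor of mucus-producing cells, at a log2 difference of -0.70 (SE 0.22). At an adjusted p under 0.05, 0 of 27 were called by limma. The median log2 difference of the list was -0.15 and the single values ran from -1.24 to 0.64, and 5 of the 27 had both arrays labelled S1pr2-/- above both wild-type arrays, beside 21.0% of all probes. The summed level of the list was 16129% and 16222% of the 75th percentile in wild-type, against 13825% and 16507% on the arrays labelled S1pr2-/-. Pigr and Lyz1, the brightest genes of the list, made up most of this sum, so it says little about the others.

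Of the jacalin-related genes outside the members, Sbp was at background on each array (not well above it on any), with processed intensities of 4.78, 3.54, 3.78 and 2.99, although it lies between Dcpp3 and Sbpl. Zg16, a lectin of zymogen granules, had 20.0 and 24.1 in wild-type and 28.9 and 27.5 in arrays labelled S1pr2-/-, was well above background on 1 wild-type and both arrays labelled S1pr2-/-, and differed by 0.07 on the log2 scale with the floor (SE 0.058). Zg16b had no probe named here. Of 16 genes of the reproductive tract secretory list, 11 were well above background on no array, and of the 5 tested 0 were higher and 1 lower, Ovgp1, an oviduct glycoprotein, at -0.60.

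Epithelial markers were compared array by array with the members. Of 9 airway club and goblet cell genes, 9 were brighter on S1pr2-/- replicate 2 than on replicate 1, as were 9 of 9 measured ciliated cell genes, of which 7 were well above background on all arrays. Their summed levels were 5038% and 7214% of the 75th percentile in wild-type and 4685% and 10436% in arrays labelled S1pr2-/- for club and goblet cells, and 289%, 399%, 234% and 550% for ciliated cells. The members ran the other way on the arrays labelled S1pr2-/-, being lower on replicate 2. Of 7 eosinophil genes 7, and of 6 erythroid genes 5, were also brighter on replicate 2, although 1 of the erythroid genes was at background throughout. The other lists were mixed or ran with the members: 7 of 10 alveolar epithelial, 4 of 8 pan-epithelial, 10 of 33 gland, 8 of 9 monocyte-derived macrophage, 5 of 13 alveolar macrophage, 4 of 7 neutrophil, 6 of 7 T cell, 4 of 6 B cell and 4 of 6 dendritic cell genes were brighter on replicate 1, as were 15 of 16 reproductive tract genes, of which 11 were at background on all arrays. These counts are given without the share of all probes brighter on either array, so nothing is read from them. The part of any of these cells in the members' signal was not tested. By the methods' fold and p, 0 club and goblet genes were higher and 1 lower of 9 tested, the lower one being Clca1, a goblet cell secretory protein, at a log2 difference of -3.46, and 0 of 7 ciliated, 0 of 10 alveolar epithelial and 0 of 8 pan-epithelial genes passed in either direction.

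**Figure D3:**
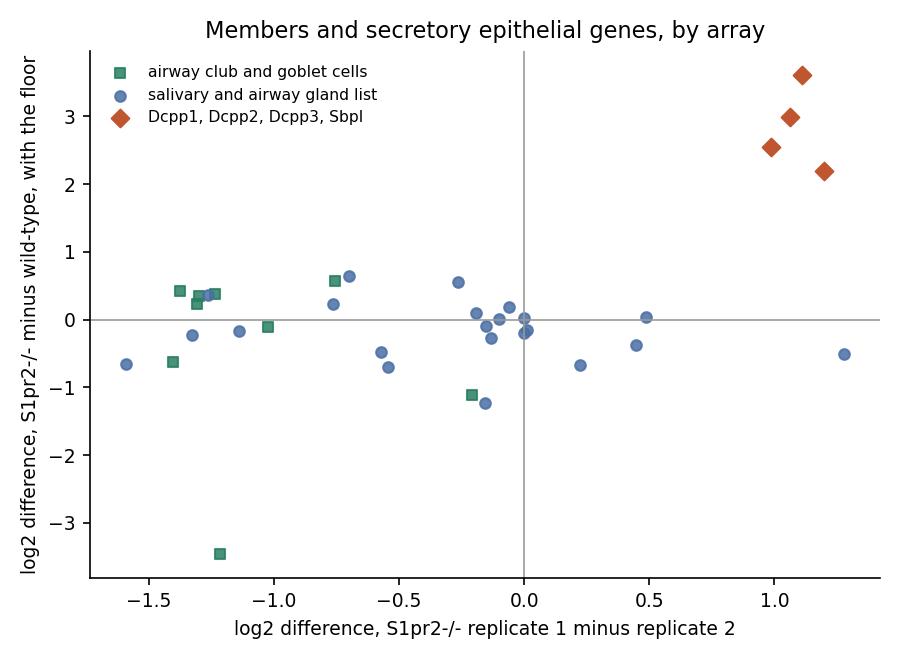
Log2 difference between the genotypes with the floor (y axis) against the log2 difference between the arrays labelled S1pr2-/-, replicate 1 minus replicate 2 (x axis); diamonds are the 4 members, squares are club and goblet cell genes and circles are other genes of the gland list, both limited to genes well above background on all arrays. The members lie at 0.99 to 1.20 on the x axis, and the club and goblet cell genes all lie below 0 there.

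Among blood cell markers, the eosinophil list moved with the genotype in the direction opposite to the members. By the methods' fold and p, 5 of 7 eosinophil genes were lower on the arrays labelled S1pr2-/- and 0 higher, with a list median of -4.47 on the log2 scale, and 0 of 7 were called by limma at an adjusted p under 0.05. None of the 7 was undetected on all arrays, and the summed level, in which Siglecf is shared with alveolar macrophages, was 4424% and 5348% of the 75th percentile in wild-type and 3554% and 4012% in arrays labelled S1pr2-/-. Of 7 neutrophil genes 3 were lower, and of 7 T cell genes 1 was lower. Of 13 alveolar macrophage, 9 monocyte-derived macrophage, 6 B cell, 6 dendritic cell and 4 erythroid cell genes tested, 0 passed in either direction. The part of these blood cells in the members' difference was likewise not tested.

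The genes on both sides of the cluster were measured in the same fit. Of the 10 measured genes before Dcpp1 and the 10 after Sbpl in RefSeq order, 18 were tested, 0 were higher and 0 lower by the methods' fold and p, and all 18 lay within 1 on the log2 scale. Their median log2 difference was 0.08, and the range ran from -0.24 for Prss33, a serine protease, to 0.50 for Flywch1 (SE 0.080), a zinc finger gene. Flywch1 had processed intensities of 646 and 572 in wild-type and 940 and 901 in arrays labelled S1pr2-/-, and its neighbour Flywch2 had 730, 739, 1060 and 1014, so that neither gene overlapped between genotypes. In total, 8 of the 18 had both arrays labelled S1pr2-/- above both wild-type arrays, beside 21.0% of all probes. Prss30, the nearest measured gene after Sbpl, had 59.1, 55.2, 68.5 and 79.2, and Prss21, the nearest before Dcpp1, had 93.7, 7.49, 4.32 and 9.48 and was not tested. Prss21 was detected on wild-type replicate 1 alone.

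**Figure D4:**
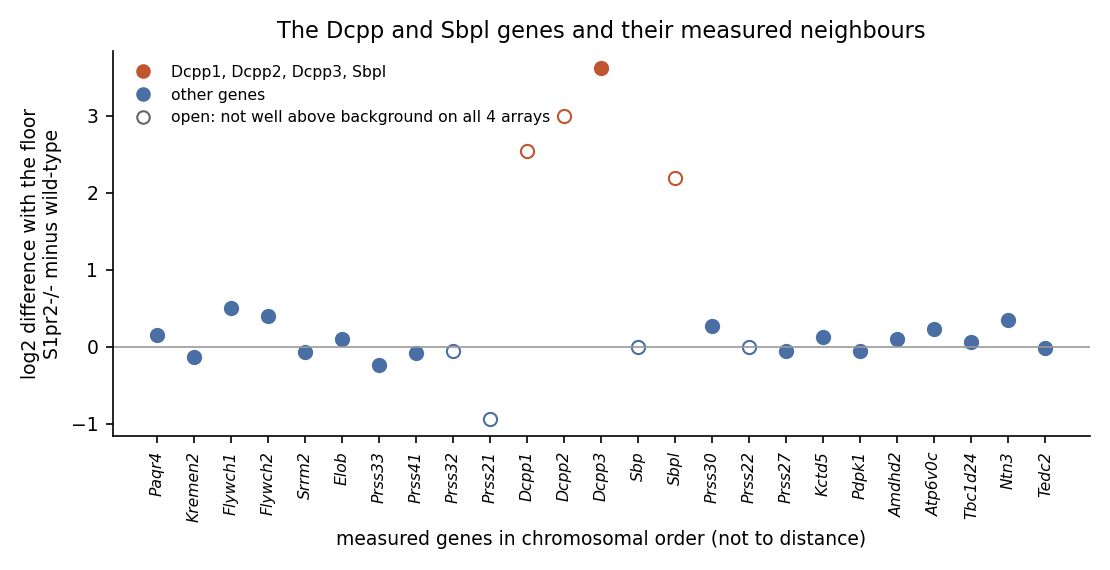
Log2 difference between the genotypes with the floor (y axis) of the members and the measured genes around them in chromosomal order (x axis, evenly spaced); open symbols are genes not well above background on all 4 arrays. The members lie between 2.20 and 3.61, the tested neighbours within 1 of 0, and Prss21, which was not tested, at -0.94.

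Genes with a pattern like that of the members were sought only among named probes with the detection pattern of Dcpp1 and Sbpl. Dcpp2 and Dcpp3 do not have that pattern. Genes detected on a wild-type array, S1pr2 among them, could not enter, so closer genes may lie outside this set. The measure was the root mean square difference from the members' mean profile over the 4 arrays. It used log2 values without a floor, after each profile had been centred on its own mean. The measure thus compares the shape of the profiles and not their levels. Of 227 candidates, the 5 nearest were Olfr351, Atp6ap1l, Terb2, Hormad1 and Galnt17. Olfr351 is an olfactory receptor (0.38), and Atp6ap1l is related to a proton pump accessory protein (0.39). Terb2 (0.57) and Hormad1 (0.59) are meiotic genes, and Galnt17 (0.60) is related to enzymes that start O-glycosylation of mucin-type proteins. The members' own values were 0.34 for Dcpp1, 0.03 for Dcpp2, 0.06 for Dcpp3 and 0.36 for Sbpl. Olfr351 had processed intensities of 5.38 and 4.50 in wild-type and 125 and 26.9 in arrays labelled S1pr2-/-, and Atp6ap1l had 4.77, 3.53, 49.2 and 21.3. None of the 5 was well above background on a wild-type array, so that this likeness rests in part on background values. With the floor, the log2 difference of the 5 genes ran from 0.40 for Atp6ap1l to 1.24 for Galnt17 (SE 0.19), against 2.20 to 3.61 for the members. Galnt17 had 56.6 on S1pr2-/- replicate 1 and 71.3 on replicate 2, the reverse of the members' order.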

How the data were processed

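The authors deposited, for each of 4 one-color arrays, the intensity of every spot as written by Feature Extraction (11.0.1.1 in the file headers, 10.7.3.1 in the methods), whose processed signal is background-corrected. The authors also deposited a table of log2 values normalized to the 75th percentile, used as an alternative. Here, outlier-flagged spots were dropped, spots of a probe were averaged, each array was divided by its 75th percentile (2489 to 2817 intensity units), values below 0.01 of it were set to 0.01, and log2 was taken. The methods list a floor of 0.01 before this scaling, so the floor used here is not theirs. The floor equals 24.9 to 28.2 intensity units, which is above the lowest detected signal (14.8 to 23.7) and above 7 of the 8 wild-type member spots, so members are given with and without it. Per array, 67.6% to 72.2% of probes were well above background. A second value for members not well above background takes the higher of the probe's own signal and the array's lowest detected signal. It holds for these scaled values only and is not a strict limit. Prss22 was not well above background at 20.3 on wild-type replicate 2, where the lowest detected signal was 17.5. On wild-type replicate 1 the lowest detected signal was the Dcpp3 spot, so the second values of the other members rest on it there.

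limma 3.58.1 (R 4.3.3; lmFit, eBayes, Benjamini-Hochberg) was fitted to 27161 probes, 2 arrays against 2. p-values measure only the spread between these arrays, whose number limits the precision. In a simulation of this comparison with 27161 probes, the adjusted test recovered 131 of 200 probes given a log2 change of 2. It also called 6 unchanged probes. The simulated noise was normal and independent for each probe, with no floor and nothing shared between probes. It therefore does not give the share of such changes that the test would find in these arrays. Probes were named by accession through RefSeq (GRCm38.p6; 27427 of 39429 matched); for a gene with several probes the brightest was used. Members, lists and tests were chosen with earlier results of these data known. Named genes were the members, S1pr2, jacalin-related genes, the 4 brightest gland genes, sex-linked genes and 10 measured genes on each side. The 5 most alike in pattern, among genes not well above background on either wild-type array, were also named. List genes that passed and those on no array were chosen after their values were seen. So were the genes next to the members in rank and the neighbours given with values. Alternatives were other normalizations, background corrections, floors, filters, detection rules, the replicate block and each array left out. The mean signal was not among the columns, so normexp used the median signal.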

Additional observations from a re-analysis of the deposited data

How the results depend on the processing

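All 4 members were higher on the S1pr2-/- arrays in each of the 11 alternatives run for them, but the size moved with the floor and the background correction. The median log2 difference of the members was 2.77. It was 3.58 in the authors' log2 values and 3.59 with no floor, 1.77 with a floor of 0.02, 1.42 with the percentile over detected probes (which raises the floor in intensity) and 1.40 with normexp, and 2.25 to 3.28 with each array left out, lowest without S1pr2-/- replicate 1. The count of probes well above background on S1pr2-/- arrays only was 391. It was 538 with significance over background as detection and 108 with a signal over 1.5 times the local background as detection. This count held 2 members (Dcpp1 and Sbpl) under the first rule and 0 under the others. At an adjusted p, normexp called 1 higher and 1 lower probe.

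By the methods' fold and p, 132 probes were higher. The count was 210 with quantile normalization, 66 with the percentile over detected probes, 72 with normexp, 237 in the authors' values, 238 with no floor, 73 with a floor of 0.02, 58 by the methods' t-test and 151 to 351 with each array left out (351 without S1pr2-/- replicate 1 and 263 without replicate 2). For the 440 lower probes it was 199 with the percentile over detected probes, 278 with normexp, 249 with a floor of 0.02, 244 with no filter, 152 by the methods' t-test and 340 to 729 with each array left out (687 without wild-type replicate 1 and 729 without replicate 2). These fits take the remaining single array to have the spread of the other genotype. In the gland list, higher genes were 0, and 1 to 2 with an array left out. Lower genes were 1, 0 with quantile normalization, the percentile over detected probes, normexp, a floor of 0.02 or no filter, 2 with no floor, and 1 to 2 with an array left out. The cause of these shifts was not tested beyond the settings' construction.

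The replicate numbers shared by the genotypes pair no samples in the labels (correlation of deviations 0.19 over 2 pairs). With the replicate block, 0 probes were called at an adjusted p, and 166 were higher and 444 lower by the methods' fold and p. The wild-type signals of Dcpp1 and Sbpl are limited by the background, so the size of their differences depends on the level set for it.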
